A study of Mus musculus with 6 samples.

Results

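The matrix proteases and their inhibitors were taken as every gene whose symbol begins with Mmp, Adamts or Timp followed by a digit, found through the transcript that each array probe was designed for. The rule gave 45 genes on 59 probes, of 20284 genes that have a probe and a symbol: 22 Mmp genes on 27 probes, 19 Adamts genes on 27 probes and 4 Timp genes on 5 probes. Mmp27, the remaining gene of these families in the reference table, had no matched probe. The rule matched names and used no measured value. The families themselves were chosen with earlier results of these data known, the lower Mmp7 in the uterus among them.

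The study compared female CD-1 mice given BHPF with mice given the vehicle, peanut oil, all of them immature and 24 days old by their labels. BHPF is fluorene-9-bisphenol, a substitute for bisphenol A in plastics, and the study asked whether it opposes oestrogen. The dose was 50 mg per kg of body weight, given daily into the stomach for 3 days, and the sources place the first day of treatment at different ages. Liver, ovary and uterus were measured, each with 1 control array and 1 BHPF array, and the RNA on each array was a pool from 3 mice, so the spread between animals was not measured and precision is limited by how few arrays there are. Fewer cells of a type and less RNA per cell cannot be told apart in such bulk samples. All 6 arrays lay on 1 slide, with the control arrays at its first positions and the BHPF arrays after them, and the effects of position and of treatment cannot be told apart.

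Matrix metalloproteinases (MMPs) are zinc-dependent enzymes that cut collagens, elastin, fibronectin and other proteins of the extracellular matrix. ADAMTS enzymes are their secreted relatives with thrombospondin repeats, which cut proteoglycans such as versican and aggrecan or trim procollagens, and TIMPs are small secreted proteins that block the active site of MMPs and of some ADAMTS enzymes. In the female tract these genes are known for the growth and rupture of follicles in the ovary and for the growth and breakdown of the endometrium, and several of them are under the control of oestrogen or progesterone.

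A level is the log2 intensity of a probe minus the 75th percentile of its array, so that 0 is a bright probe and each step of 1 is 2-fold. Levels are compared between arrays for 1 probe and not between probes. Folds are taken from levels, and so differ from the ratio of the unscaled intensities printed beside them. A probe counted as above background when the scanner software had marked it well above background. By this mark 39 of the 45 genes were detected on at least 1 array, with 46 of the 59 probes, and 25 genes were detected on all 6 arrays. Adamts3, Adamts6, Adamts20, Mmp1a, Mmp1b and Mmp21 were not above background on any array. Members were detected in similar numbers in the ovary and in the uterus, 35 genes each on at least 1 of the 2 arrays, and in the liver 29 genes were detected. All 4 Timp genes were above background in every tissue.

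The tissue labels were checked against defining markers. Hoxa11 was above background only on the uterus arrays and Fshr only on the ovary arrays. Alb stood at 6.07 (control) and 5.77 (BHPF) in liver, and at 0.52 and 1.04 in ovary. Other listed markers were less specific. The ovary marker Foxl2 stood at 5.12 and 5.19 in liver, above its 4.31 and 4.35 in ovary. Inha and Gdf9, also ovary markers, were highest in ovary but above background on both uterus arrays. The ovary marker Zp3 was at least 3.15-fold higher on the BHPF than on the control liver array. The BHPF uterus array also carried transcripts of liver. On it 6 of 6 liver markers were at least 2-fold above the control uterus, with a median log2 ratio of 4.03. Their summed level was 29.0 against 1.87 times the 75th percentile. The median share of liver signal over 466 liver-specific probes was 0.657%, with quartiles of 0.341% and 1.30%. The median share, taken at the control liver level, would bring between 3.92% and 13.5% of the BHPF uterus signal of 5 of these markers. For Cps1 it would bring 68.0%, so the levels of all 6 lay above what the median share brings. In the ovary 0 of 6 liver markers differed by 2-fold. The table of values that accompanies the scanner files has its 2 uterus columns exchanged, since its column headed control uterus matched the BHPF uterus array for 99.1% of 38802 probes. Which of them is labelled correctly was not settled. The scanner files were followed here, and every sign given for the uterus turns if the headings of the table are followed instead.

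Of the 10 Mmp genes that lie side by side on mouse chromosome 9, with no other protein-coding gene between them in the reference table, 9 had a probe. In the order of the chromosome the cluster reads Mmp13, Mmp12, Mmp1b, Mmp3, Mmp1a, Mmp10, Mmp8, Mmp27, Mmp20 and Mmp7. The results on BHPF and on the uterus turn on 4 of them, Mmp3, Mmp10, Mmp8 and Mmp7, and the 250 bases before the first listed start of each are shown for that reason (RefSeq, GRCm38.p6, plus strand, 5′ to 3′). Capitals mark the AP-1 motif TGANTCA, which binds Fos and Jun proteins, and the TATA motif TATAAA, each searched on both strands.
Mmp7, chr9:7691840-7692089: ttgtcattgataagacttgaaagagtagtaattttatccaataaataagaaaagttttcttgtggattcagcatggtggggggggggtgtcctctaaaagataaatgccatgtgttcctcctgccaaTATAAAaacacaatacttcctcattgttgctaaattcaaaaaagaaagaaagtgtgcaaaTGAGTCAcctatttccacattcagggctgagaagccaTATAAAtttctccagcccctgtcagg
Mmp3, chr9:7445572-7445821: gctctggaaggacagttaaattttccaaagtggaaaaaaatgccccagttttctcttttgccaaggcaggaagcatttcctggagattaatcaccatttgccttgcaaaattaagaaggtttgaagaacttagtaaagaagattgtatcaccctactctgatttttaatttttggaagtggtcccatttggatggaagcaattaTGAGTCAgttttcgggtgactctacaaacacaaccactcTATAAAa
Mmp10, chr9:7502092-7502341: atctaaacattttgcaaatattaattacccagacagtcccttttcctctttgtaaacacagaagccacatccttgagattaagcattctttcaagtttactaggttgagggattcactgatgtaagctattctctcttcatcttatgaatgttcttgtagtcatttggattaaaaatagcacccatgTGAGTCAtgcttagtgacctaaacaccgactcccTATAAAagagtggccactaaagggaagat
Mmp8, chr9:7558179-7558428: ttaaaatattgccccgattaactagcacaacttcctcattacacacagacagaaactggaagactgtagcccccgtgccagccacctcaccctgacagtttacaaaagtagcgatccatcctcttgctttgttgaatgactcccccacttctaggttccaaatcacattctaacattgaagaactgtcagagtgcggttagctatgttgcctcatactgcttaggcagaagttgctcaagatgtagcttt

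The windows of Mmp7, Mmp3 and Mmp10 each held 1 AP-1 motif, with its first base 63, 46 and 63 bases before the start, and a TATA motif 26, 7 and 29 bases before it. Mmp7 had another TATA motif 123 bases before the start. The window of Mmp8 held neither. The table lists 2 starts for Mmp7. Among the 31 members with a promoter in the table, 8 held the AP-1 motif, and all 8 were genes of the cluster on chromosome 9, where 9 had a promoter. None of the 22 members outside the cluster with a promoter in the table held it. The remaining members, Mmp9 and Adamts4 among them, had no promoter there and were not searched. Over all 32851 promoters of the table the share with the motif was 6.75%. The full palindrome of the oestrogen response element was found in 0 of 34 member promoters and in 0.0639% of all promoters. A match is a run of letters and not a bound site, and its absence says only that these letters are not in this window.

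**Figure D1:**
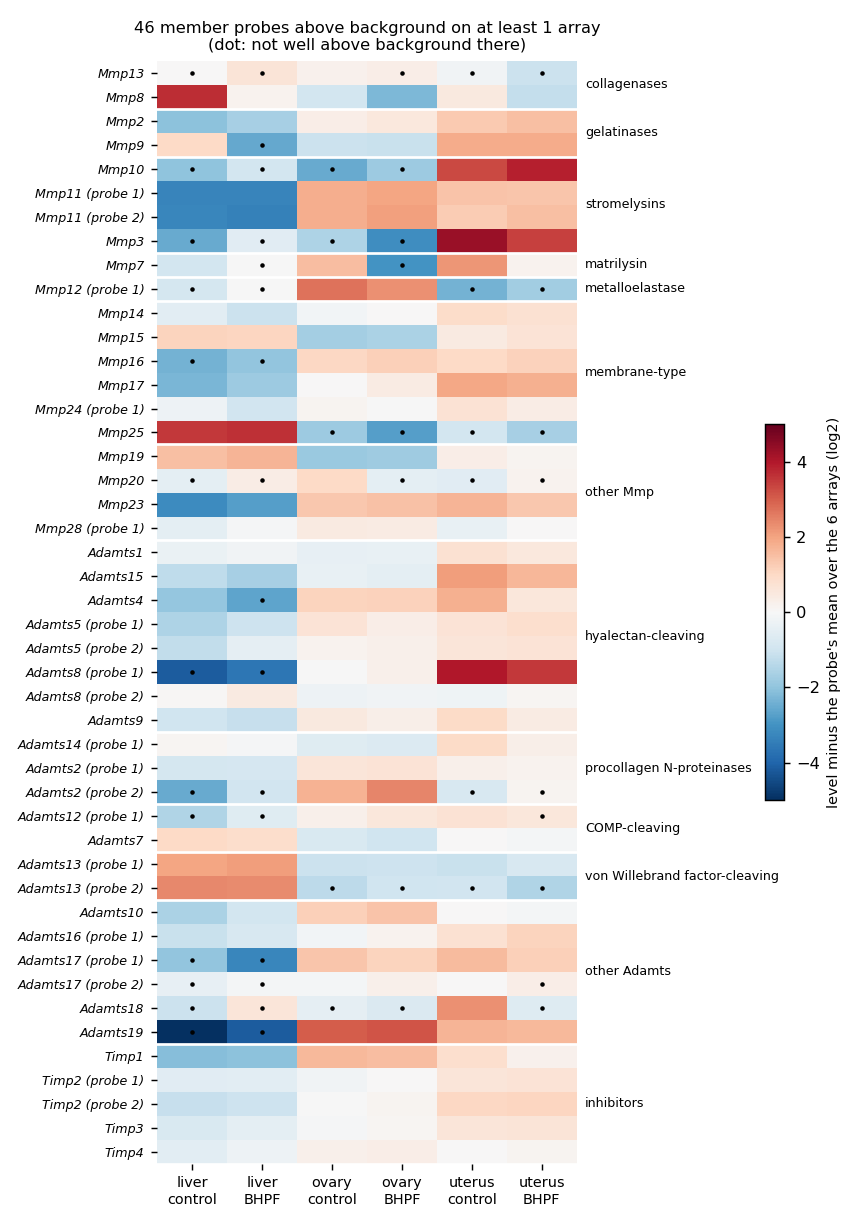
Level of each of the 46 member probes above background on at least 1 array, minus the mean of that probe over the 6 arrays (log2 scale, red above and blue below the mean), with the arrays in columns and the probes in rows by role. A black dot marks an array on which the probe was not well above background; most rows differ between tissues and hardly between the control and BHPF arrays of a tissue, apart from rows such as Mmp7, Mmp8 and Mmp9.

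BHPF was compared with control within each tissue to ask which members differed between the arrays. With 1 array per group no test was possible, and a 2-fold or larger difference between the 2 arrays was taken as a call. A probe above background on only 1 of the arrays has a fold that is a bound. The dim array then enters with the lowest intensity that any of its probes had well above background, or with the probe's own value if this was larger. This floor is not a detection limit, since a brighter probe on the same array could also be unmarked. The SD of a log2 ratio from noise between the spots of a probe on the same array was 0.144, which leaves out the spread between animals.

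No member was called higher in any tissue, and 5 genes were called lower in at least 1. In the liver these were Mmp8 and Mmp9, in the ovary Mmp7 and Mmp8, and in the uterus Mmp7, Mmp8, Adamts4 and Adamts18. That made 2 of 33 evaluated member probes in the liver, where 1.07% of all 36578 probes evaluated were called lower and 6.02% higher. In the ovary 2 of 41 member probes were called lower, beside 0.593% of 41674 probes lower and 0.681% higher. In the uterus 4 of 40 were called lower, beside 0.773% of 38802 probes lower and 1.88% higher. The lower uterine Mmp7 was known when the families were chosen, so this count was not blind to it. The median log2 ratio of the member probes was 0.09 in liver, 0.09 in ovary and -0.08 in uterus, against 0.06, 0.0036 and 0.0097 over all probes evaluated. Within 2 spot-noise SDs of no difference lay 19 of 33 member probes in liver, 31 of 41 in ovary and 23 of 40 in uterus, where 60.3%, 81.0% and 74.3% of all probes did.

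**Figure D2:**
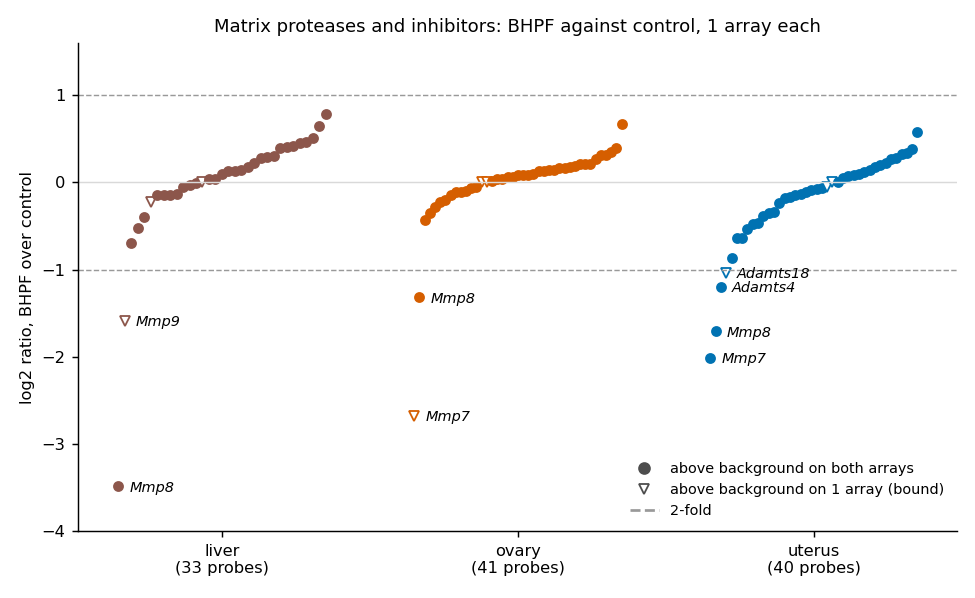
Log2 ratio of BHPF over control (vertical axis) for each member probe evaluated in liver (33), ovary (41) and uterus (40), ordered by size within a tissue. Filled circles were above background on both arrays, open triangles on 1 array and are bounds, and dashed lines mark 2-fold; only named genes lie below the lower line and none lies above the upper one.

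Mmp7 is matrilysin, a small protease of glandular and other epithelia that cuts many matrix proteins and sheds cell-surface ligands. In the uterus its level was -2.43 with vehicle and -4.44 with BHPF, or intensities of 993 and 209, both above background. The log2 ratio was -2.01, a 4.04-fold lower level with BHPF. In the ovary the level was -3.06 on the control array (intensity 898) and -7.62 on the BHPF array (intensity 32), where the probe was not above background. The ovarian level was therefore at least 6.40-fold lower with BHPF. In the liver the probe was near background, at -5.53 with vehicle and at -4.65, not above background, with BHPF, and no fold was given. The lower level of Mmp7 was thus found in both organs of the tract. Whether the change differed between tissues was not tested. With limma's normexp background correction the uterine log2 ratio was -1.26, and the ovarian one was -2.52.

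Markers of epithelium are given beside Mmp7, since epithelial cells make it. In the uterus 0 of 5 epithelial markers (Epcam, Cdh1, Krt8, Krt18, Krt19) differed by 2-fold, with a median log2 ratio of 0.08 and a summed level of 41.6 in control and 44.5 with BHPF. Foxa2, a regulator of uterine glands, was at -0.47 and 0.05 in the uterus. It belongs to a gland list (Foxa2, Cxcl15, Prss28, Prss29) chosen after the data were seen, of which 3 were evaluated in the uterus and 0 were called. Of this list Cxcl15 alone was above background only in the uterus. Foxa2 was higher in liver, at 2.11 and 2.46, and Prss28 lay between 0.55 and 1.19 on all arrays. The list is therefore a weak measure of uterine glands here. The oviduct lies against the ovary. Of 3 oviduct markers, also chosen after the data were seen, 1 was called lower in the ovary: Foxj1, a regulator of cilia, stood at -3.11 and -4.28. Ovgp1, the secreted glycoprotein of the oviduct, stood at -0.84 and -1.58. Pax8, a regulator of this epithelium, was near background at -6.06 and, not above background, -5.73. The summed level of the list was 0.688 in control and 0.404 with BHPF. The 5 epithelial markers of the first list had a median log2 ratio of -0.06 in the ovary, with none called. The part of oviduct tissue in the ovarian value of Mmp7 was not tested.

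Mmp8, the collagenase stored in neutrophil granules, was lower on the BHPF array of every tissue. In the liver its level was 0.78 with vehicle and -2.70 with BHPF, or intensities of 5907 and 505, an 11.2-fold lower level. In the ovary the levels were -3.83 and -5.15, 2.50-fold lower with BHPF, and in the uterus -2.39 and -4.10, 3.26-fold lower. All 6 values were above background. The median liver share of the BHPF uterus array would bring 19.3% of the Mmp8 signal there at the Mmp8 level of the control liver array. It would bring 1.72% at that of the BHPF liver array. With these amounts taken off, the uterine log2 ratio was -2.01 and -1.73, in place of -1.71. These values hold for the median share alone, and the share varied between liver probes. With normexp the ovarian ratio was -0.90, short of 2-fold.

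Mmp9, gelatinase B, which is also stored in neutrophil granules, was called in the liver. It stood at -3.32 on the control array (intensity 345) and at -6.86, not above background, on the BHPF array (intensity 28), so that it was at least 3.01-fold lower. In the ovary the levels were -5.37 and -5.43 and in the uterus -2.45 and -2.45. The difference between tissues was not tested. Mmp25, the membrane-type MMP of leukocytes, was above background in liver alone, at -1.63 and -1.501, and differed there by less than 2 SDs of the spot noise.

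**Figure D3:**
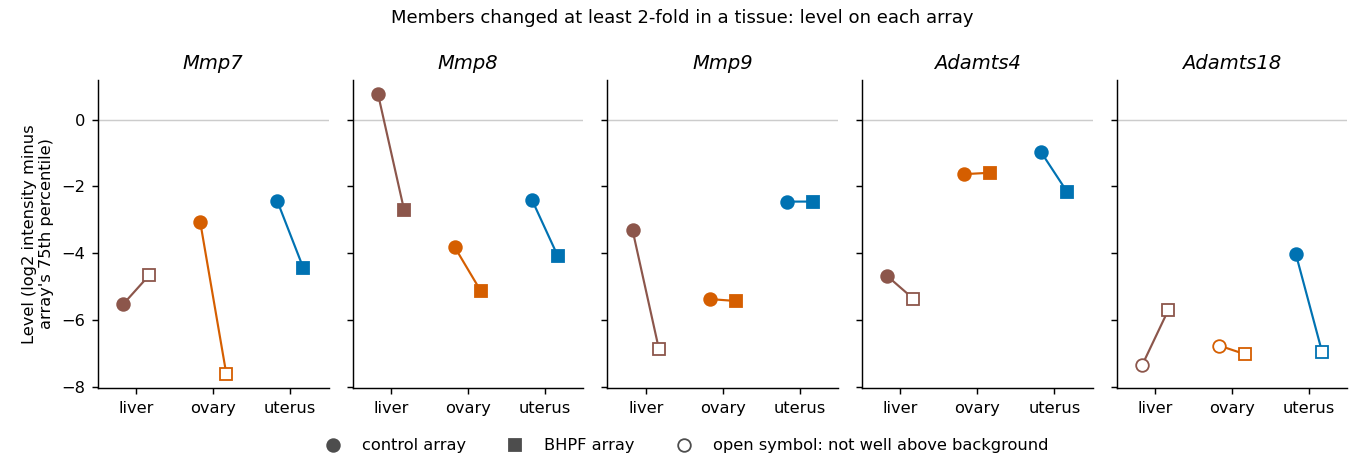
Level (log2 intensity minus the 75th percentile of the array, vertical axis) of the 5 members called at least 2-fold lower with BHPF in a tissue, on the control array (circles) and the BHPF array (squares) of liver, ovary and uterus, with open symbols where the probe was not well above background. Mmp8 is lower with BHPF in all 3 tissues, Mmp7 in ovary and uterus, and the call was made in liver for Mmp9 and in uterus for Adamts4 and Adamts18.

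Markers of neutrophils moved with Mmp8 and, in liver, with Mmp9. In the liver 7 of 10 neutrophil markers were at least 2-fold lower with BHPF and the ratio of every one was negative. The median log2 ratio in liver was -2.42 and the summed level was 54.1 in control and 23.7 with BHPF. In the ovary 5 of 8 evaluated markers were lower, with a median of -1.61 and summed levels of 13.9 and 11.4. In the uterus 4 of 9 were lower, with a median of -0.53 and summed levels of 31.6 and 29.0. S100a8, a subunit of the calprotectin of neutrophils, had log2 ratios of -2.73 in liver, -3.13 in ovary and -1.52 in uterus. Among the defining granule genes Mpo was at -2.45 in control liver and not above background on the BHPF liver array, and was at -0.54 and -1.06 in the uterus. Elane was at most -4.50 on any array. Ltf, which uterine epithelium also makes, stood at 3.46 and 3.50 in the uterus. The probes of Csf3r (3.46 to 4.28 over the 6 arrays) and, in the uterus, Cxcr2 (-3.82 and -3.65) showed no 2-fold difference. On the ovary arrays Csf3r was by far the brightest of the list, and on the uterus arrays Csf3r and Ltf were. The summed levels there are set mostly by these probes, which were near equal on both arrays, and say little about the others. Macrophage markers moved as well. In the liver 1 of 6 was lower (Marco, -1.85) and 1 higher (Cd163, 1.27). In the ovary 2 of 5 were lower (Marco, -2.71, and Adgre1, -1.24). In the uterus 1 of 5 was higher (Clec4f, 1.21). The median liver share would bring 44.4% of the Clec4f signal on the BHPF uterus array at the level of the control liver array. At the level of the BHPF liver array it would bring 51.4%. The part of neutrophil or macrophage number in the values of Mmp8 and Mmp9 was not tested.

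**Figure D4:**
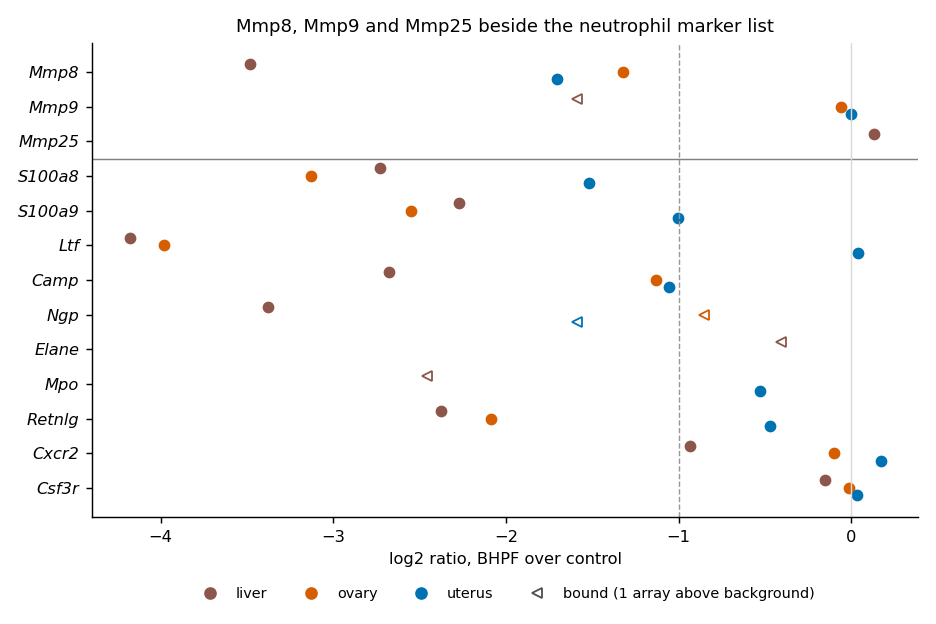
Log2 ratio of BHPF over control (horizontal axis) of Mmp8, Mmp9 and Mmp25 above the line and of the 10 neutrophil markers below it, for liver, ovary and uterus, with open triangles for bounds and a dashed line at 2-fold lower. Mmp8 lies left of the dashed line in all 3 tissues, as S100a8 does, while Mmp25 in liver and Csf3r in every tissue lie near 0.

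Adamts4 is aggrecanase 1, which cuts the proteoglycans aggrecan and versican. In the uterus its level was -0.98 with vehicle and -2.17 with BHPF, 2.29-fold lower, with intensities of 2710 and 1005. In the ovary it was -1.63 and -1.59, and in the liver it was close to background at -4.69 and -5.37. Adamts18 stood at -4.03 on the control uterus array (intensity 327) and was not above background at -6.96 on the BHPF uterus array (intensity 36), so that it was at least 2.05-fold lower. It was not above background on any liver or ovary array. The bound for Adamts18 lies just inside the 2-fold limit and rests on the lowest intensity well above background on that array, 135. On the same array the second probe of Adamts17, at 174, was not above background, so the call depends on the floor used. Next outside the 2-fold limit in the uterus lay Mmp3, at -0.44 and -1.31, a log2 ratio of -0.87.

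Adipocyte markers also differed on these uterus arrays. All 3 adipocyte markers above background there were lower with BHPF, with a median log2 ratio of -2.71 (Adipoq, -3.31), and the summed level of the list was 3.19 in control and 0.814 with BHPF. In the ovary 2 of 4 were higher with BHPF (Cfd, 2.05, and Adipoq, 1.35) and in the liver 1 of 3 was lower (Cfd, -1.63). The part of fat tissue in the values of the members was not tested. Neither smooth muscle nor stromal markers differed by 2-fold in the uterus, 0 of 5 each, with medians of 0.01 and -0.05.

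The other detected enzymes that cut hyalectans, the large proteoglycans that bind hyaluronan, stayed within 2-fold in all tissues. Adamts1, which progesterone induces in ovulating follicles, stood at 0.49 in control and 0.66 with BHPF in liver, at 0.44 and 0.45 in ovary and at 1.60 and 1.37 in uterus. Adamts9 was at 2.04 and 1.505 in the uterus and Adamts15 at -0.37 and -0.84. In the uterus 5 of 8 probes of this group, Adamts4 included, had negative log2 ratios, and their median was -0.35. In the ovary the median was 0.03 and in the liver 0.17.

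Mmp2, gelatinase A of stromal cells, and Mmp14, the membrane-type MMP that activates it, differed by less than 2-fold. Mmp2 stood at -0.74 and -0.35 in liver, 1.65 and 1.82 in ovary and 2.62 and 2.82 in uterus. Mmp14 stood at -0.86 and -1.38 in liver, -0.44 and -0.30 in ovary and 0.61 and 0.43 in uterus. In the ovary and the uterus each of these pairs differed by less than 2 SDs of the spot noise. Mmp11, stromelysin 3, a secreted enzyme of stroma, stood at 2.63 and 2.82 in the ovary. Its second probe, at 1.87 and 2.07, gave the same ovarian log2 ratio to within 0.02.

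None of the inhibitors was called. Timp1, which many cells induce on injury, stood at -2.27 and -2.18 in liver, 1.501 and 1.40 in ovary and 0.71 and 0.08 in uterus. The uterine log2 ratio of -0.63 was over 2 SDs of the spot noise. Timp2 stood at 1.12 and 1.15 in liver, 1.49 and 1.70 in ovary and 2.26 and 2.35 in uterus, and its second probe stayed within 0.10 of these log2 ratios. Timp3, which is held in the matrix, stood at 1.86 and 2.14, 2.55 and 2.73, and 3.23 and 3.27. Timp4 stood at -0.56 and -0.28, 0.21 and 0.31, and -0.00 and 0.12. In liver and ovary all 5 Timp probes were within 2 SDs of the spot noise.

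Of the 14 genes with 2 probes, 7 had both above background somewhere. Over 15 comparisons in which both probes of a gene were evaluated in a tissue, no pair of log2 ratios differed by more than 0.80. The largest gap was that of Adamts8 in the uterus, where the 2 ratios had opposite signs, -0.48 and 0.32. Those of Adamts17 in the ovary, -0.29 and 0.34, did too. Probes of a gene also differed in how they varied between tissues, as given below for Adamts8 and Adamts2.

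The related genes of the pathway, fixed as a list of 43 symbols of which 42 had a probe, were evaluated in the same way. In the ovary 0 of 38 were called. In the uterus 1 of 37 was called higher, Plg, at -4.08 and 0.92. Plg encodes plasminogen, which the liver makes, and its liver levels were 4.91 and 4.83. The median liver share would bring 10.4% of the Plg signal on the BHPF uterus array at the control liver level. At the BHPF liver level it would bring 9.77%. The source of the Plg signal was not tested. The activators Plat and Plau, the tissue and urokinase plasminogen activators, were within 2-fold in every tissue. The median log2 ratio of the list was -0.03 in liver, 0.02 in ovary and 0 in uterus. The related genes named for high intensity in a tissue were also within 2-fold: Ctsl (4.43 and 4.28) and Ctsb (4.36 and 4.40), lysosomal cysteine proteases, in liver, Ctsl (3.41 and 3.51) and Sparc (3.31 and 3.42), a collagen-binding protein, in ovary, and Sparc (3.81 and 3.96) and Ctsb (3.54 and 3.62) in uterus.

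An effect of BHPF common to the 3 tissues was tested with a limma fit of tissue and treatment over the 6 arrays and Benjamini-Hochberg adjustment over all 43892 probes above background on at least 1 array. It called 0 of 46 member probes higher and 0 lower, and 0.0% of all probes in each direction. The smallest adjusted p of a member was 0.768. At an unadjusted p under 0.05 there were 4 member probes higher and 1 lower among the 46, against 1680 and 614 of all 43892 probes. The lower one was Mmp8, with a log2 difference of -2.17 ± 0.49 (SE of the limma fit), lower with BHPF in 3 of 3 tissues. Of the others, Mmp10 and the second probe of Adamts2 were dim on most arrays. The 3 tissues of a treatment came from mice of 1 group, and whether the pools shared animals is not stated in the sources used here, so the tissues may not be independent. The fit had 2 residual degrees of freedom, so the count says little about smaller effects.

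The same fit was used to ask how the members differed between the tissues, where each tissue had 2 arrays, control and BHPF. These 2 arrays differ in treatment, and a p-value measures only the spread between these arrays.

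Between the organs of the tract, 14 member probes of 13 genes were higher in the uterus and 4 probes of 4 genes higher in the ovary, of 46 tested. Over all probes 12.4% were higher in the uterus and 11.1% higher in the ovary. The median log2 difference, ovary minus uterus, was -0.36 over the member probes and -0.10 over all probes. Leaving out any array of the contrast lowered both counts, and the count for the uterus stayed the larger. Such a fit has 1 array left in that tissue. Without the control ovary array 4 member probes were higher in the uterus and 1 in the ovary, and without the BHPF ovary array 4 and 2. Without the control uterus array the counts were 3 and 0, and without the BHPF uterus array 2 and 0.

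The stromelysins Mmp3 and Mmp10, broad matrix proteases that also activate other MMPs, were above background in the uterus alone. Mmp10 stood at -2.30 on the control and -1.73 on the BHPF uterus array, with intensities of 1080 and 1370, against 27 and 37 in the ovary. It was at least 16.2-fold higher in the uterus than in the ovary (limma adjusted p = 0.0018) and at least 9.51-fold higher than in the liver (limma adjusted p = 0.00072). Mmp3 stood at -0.44 and -1.31 in the uterus, with intensities of 3920 and 1828, against 96 and 27 in the ovary. It was at least 35.1-fold higher in the uterus than in the ovary (limma adjusted p = 0.021), a call that did not hold without any 1 of the 4 arrays of that contrast, with adjusted p-values up to 0.15. Against the liver Mmp3 was at least 20.9-fold higher (limma adjusted p = 0.014), a call lost without either uterus array. Mmp7 itself was not called between ovary and uterus (log2 difference, ovary minus uterus, -1.91 ± 1.38 SE; limma adjusted p = 0.36).

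Mmp12, macrophage metalloelastase, a neighbour in the cluster, had the opposite pattern. It was above background in the ovary alone, at -2.64 and -3.07, and was at least 5.97-fold higher there than in the uterus (limma adjusted p = 0.0055) and at least 5.31-fold higher than in the liver (limma adjusted p = 0.0056). The call against the uterus did not hold without either uterus array. Its second probe was not above background on any array. The median level of 6 macrophage markers was -0.13 on the control and -1.50 on the BHPF ovary array, and 0.58 and 0.39 in the uterus. Their summed levels were 8.67 and 5.68 in the ovary and 11.8 and 10.99 in the uterus. The part of macrophages in the values of Mmp12 was not tested. Mmp13, collagenase 3, and Mmp20, enamelysin of teeth, were above background on the control ovary array only, at -5.68 and -6.15.

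Adamts8, Adamts15, Mmp15, Mmp17 and Mmp19 were also higher in the uterus. The first probe of Adamts8, an enzyme with anti-angiogenic activity, stood at 0.74 and 0.26 in the uterus and -3.28 and -3.01 in the ovary, 12.5-fold higher in the uterus (limma adjusted p = 0.0055). The second probe of this gene did not show it, at -3.49 and -3.17 in the uterus and -3.52 and -3.46 in the ovary (limma adjusted p = 0.48). Adamts15 was 4.89-fold higher in the uterus, Mmp15 and Mmp17, membrane-type MMPs, were 4.62-fold and 3.15-fold higher, and Mmp19 was 4.17-fold higher. Smaller differences in the same direction passed for Adamts14, Adamts1, both probes of Timp2, Mmp2, Adamts16 and Adamts7, between 1.63-fold and 2.41-fold.

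Higher in the ovary beside Mmp12 were Timp1, Adamts10 and the second probe of Adamts2. Timp1 was 2.07-fold higher (limma adjusted p = 0.045), and Adamts10, which acts on fibrillin microfibrils, 2.55-fold higher (limma adjusted p = 0.026). Adamts2, a procollagen N-proteinase, was named by 2 probes. The second stood at -3.51 and -2.83 in the ovary and was not above background in the uterus, at least 4.81-fold higher in the ovary (limma adjusted p = 0.0099). That call did not hold without the control ovary array or without either uterus array, with adjusted p-values up to 0.10. The first probe stood at 2.92 and 3.01 in the ovary and 2.55 and 2.48 in the uterus and was not called. Adamts19, at 0.67 and 0.76 in the ovary and -0.68 and -0.77 in the uterus, was not called between them either.

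**Figure D5:**
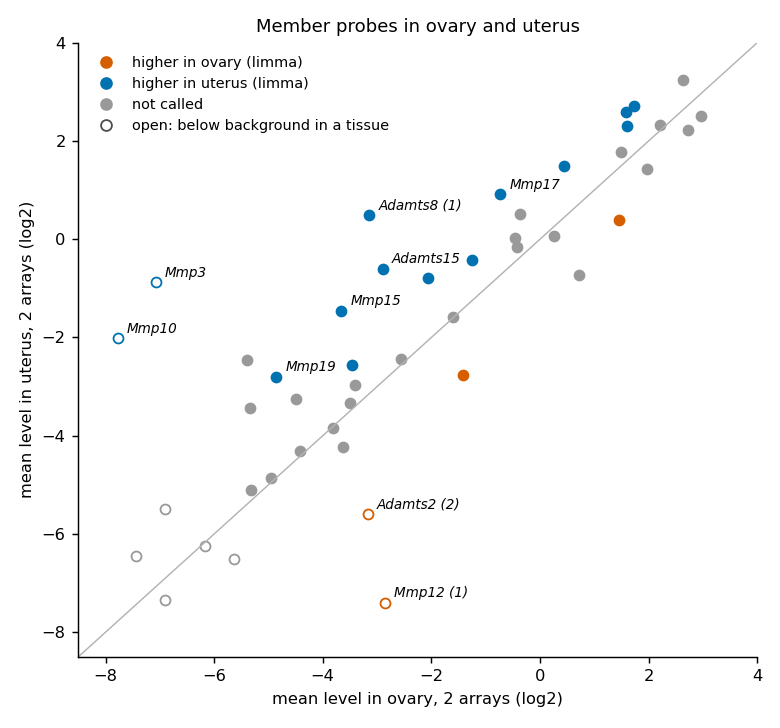
Mean level of each of the 46 member probes in the ovary (horizontal axis) and the uterus (vertical axis), each the mean of 2 arrays on the log2 scale, with the line of equality. Blue points are higher in the uterus and orange points higher in the ovary by the limma fit, and open points were below background in at least 1 of the tissues; Mmp3 and Mmp10 lie farthest above the line and Mmp12 farthest below it.

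Against the liver most members were higher in the organs of the tract. In the ovary 28 of 46 member probes were higher than in the liver and 9 lower, where 29.5% of all probes were higher and 29.9% lower. In the uterus 29 were higher than in the liver and 8 lower, where 27.6% and 25.0% of all probes were. The median log2 difference of the members was 0.72 for ovary minus liver and 1.45 for uterus minus liver, against -0.06 and 0.0019 over all probes. The ovarian count of higher probes was 18 without the BHPF ovary array. The uterine counts were 18 higher and 4 lower without the control uterus array, and 4 lower without the BHPF uterus array.

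The members higher in both organs than in the liver included Mmp11, Mmp23, Mmp2, Mmp17, Adamts4, Adamts19, Adamts17, Timp1 and Timp2. Adamts17 is listed by its first probe. Its second probe was not called against the liver in the ovary (limma adjusted p = 0.094) or in the uterus (limma adjusted p = 0.054). The first probe of Mmp11 stood at -2.47 on both liver arrays. It was 36.6-fold higher in the ovary and 25.9-fold higher in the uterus, and its second probe gave 38.2-fold and 26.2-fold. Mmp23, a membrane-anchored MMP known from reproductive tissue, stood at -2.35 and -1.95 in liver and was 20.4-fold higher in the ovary and 22.1-fold higher in the uterus. Adamts19 was not above background in the liver and was at least 63.1-fold higher in the ovary and at least 23.3-fold higher in the uterus. The limma adjusted p of the differences of Mmp11, Mmp23 and Adamts19 was at most 0.0012. All 5 Timp probes were called higher in each organ than in the liver, from 1.38-fold for the first probe of Timp2 to 12.8-fold for Timp1 in the ovary, and from 1.39-fold for Timp4 to 6.17-fold for Timp1 in the uterus.

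The members higher in the liver were fewer. Mmp25 was above background in the liver alone, at least 22.1-fold above the ovary and at least 14.6-fold above the uterus. Adamts13, the enzyme made in liver stellate cells that cuts von Willebrand factor, stood at -1.40 and -1.27 in liver and was 8.51-fold lower in the ovary and 7.90-fold lower in the uterus by its first probe. Its second probe was above background in the liver alone. Mmp19 was 10.8-fold lower in the ovary and 2.58-fold lower in the uterus, Mmp15 6.77-fold and 1.46-fold lower, and Adamts7, which cuts cartilage oligomeric matrix protein, 3.55-fold and 1.98-fold lower. Mmp8 was 11.5-fold lower in the ovary (limma adjusted p = 0.012) and 4.86-fold lower in the uterus (limma adjusted p = 0.039) than in the liver, where its own arrays lay 3.48 apart on the log2 scale. Calls that compared values above background in neither tissue were Mmp10, lower in the ovary, the first probe of Mmp12, lower in the uterus, and the second probe of Adamts2, higher in the uterus.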

How the data were processed

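Liver, ovary and uterus of control and BHPF mice were measured on 6 one-colour Agilent arrays, 1 for each group. Scanned images were read by the authors in Agilent Feature Extraction (version 9.1 in the submitters' processing notes, another version in the file headers). The deposited intensity per spot is background-subtracted and detrended, linear and not normalized between arrays. A second deposited table holds log2 values made by the authors with a percentile shift. It was checked against the scanner values and used as an alternative. Its column medians lay between -1.66 and -1.17. Its centring is a constant for each array, and its uterus direction is exchanged.

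Control and outlier spots were left out, log2 intensities were averaged over the spots of each probe, and each array's 75th percentile was then subtracted. No spot was saturated. Of 55681 probes, 48.1% had a symbol through RefSeq transcripts of GRCm38.p6. The array design names build mm9, so that promoters came from the reference alone. Within a tissue, probes above background on at least 1 array were evaluated and called at 2-fold without a test. Between tissues, limma 3.58.1 in R 4.3.3 fitted tissue and treatment on all probes above background on at least 1 of 6 arrays, with Benjamini-Hochberg adjustment and a threshold of 0.05. The files hold no mean spot intensity, so normexp (offset 50) used the median.

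The genes named are those called in a tissue, the Timp genes, Mmp2, Mmp7, Mmp9, Mmp14 and Adamts1, bright members of each control array, the 5 largest called differences of each pair of tissues, and related genes called or bright. One result among the related genes in liver is not reported here. Others named beside these were chosen after their values were seen. The members and lists were chosen with earlier results of these data known. The marker lists were those of liver, ovary, uterus, neutrophil, macrophage, epithelium, smooth muscle, stroma and adipocyte. A list of oviduct and a list of uterine gland markers were added after seeing the data. Alternatives covered background correction, scaling, filters, bounds, thresholds, probe or gene, the authors' table, the liver share (from the control liver array, and, chosen after seeing the data, from the BHPF liver array), and leaving out each array.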

Additional observations from a re-analysis of the deposited data

How the results depend on the processing

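No paired analysis was possible because each group had 1 array, so no replicate numbers pair arrays; the fit of tissue and treatment sets control beside BHPF within each tissue.

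Following the headings of the authors' table turned the sign of every uterine ratio, to 2.01 for Mmp7, 1.71 for Mmp8, 1.20 for Adamts4 and 2.93 for Adamts18, with 0 member probes lower and 4 higher and a median of 0.10. With its uterus columns exchanged the table gave 4 lower again. Counting only probes above background on both arrays left 1 lower in liver and 1 in ovary. Normexp left 1 lower in ovary. Without the filter on dim probes there were 7 higher in liver and 6 lower in ovary, and the liver median was 0.40. Scaling to the 50th percentile moved the liver median to -0.19, as it moved that of all probes to -0.22, and no direction is given for liver values this small. At 1.5-fold 2 were higher in liver, 1 higher in ovary and 7 lower in uterus, and at 4-fold 1 was lower in each tissue.

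Between tissues, leaving out 1 array gave 0 to 5 member probes higher in ovary than uterus and 2 to 18 lower, 18 to 25 higher in ovary than liver, and 18 to 29 higher and 4 to 7 lower in uterus than liver. For ovary against uterus, quantile normalization and normexp gave 7 higher each, and an intensity trend 8. Without the filter 14 were lower in ovary than liver, and with probes above background on all arrays 5 were lower in uterus than liver. Of 15 named differences between tissues, 157 of 168 refits kept the call, 11 lost it and 0 reversed. The cause of these shifts was not tested.

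Only 1 pool per group was measured, so a 2-fold call has no replicate behind it, and Mmp7 in ovary, Mmp9 in liver and Adamts18 in uterus rest on bounds near background. The BHPF intensities of Mmp8 in ovary, 180, and of Mmp7 and Mmp8 in uterus, 209 and 265, were also low. The lowest intensities well above background on those ovary and uterus arrays were 120 and 135.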
